A study of Mus musculus with 11 samples.

Results

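A set of 8 mouse microRNAs, out of 2008 distinct rows of the count table, is described here: mmu-miR-361-3p, mmu-miR-186-5p, mmu-miR-339-3p, mmu-miR-378a-5p, mmu-miR-1291, mmu-miR-5121, mmu-miR-1943-5p and mmu-miR-664-5p, written below without the species prefix. They were selected on measured values in these libraries, because their difference between dirty and clean mice, or between 2 subsets of CD8+ T cells, changed size or sign from one stratum to the other. Their levels below therefore describe the choice, and no test is attached to them. Small RNA was sequenced from splenic CD8+ T cells of mice in 11 libraries. The sorted cells were CD4-, CD8+, CD49dlo and GFP+ and were divided by CD44 into true naive cells (TN, CD44lo) and virtual memory cells (VM, CD44hi), both named stamped in the labels. Mice were labelled clean or dirty, and the labels used here define neither word and give no strain, age or genotype beyond the GFP gate. The Clean_TN group had 2 libraries, numbered replicates 2 and 3, and each of the other groups (Clean_VM, Dirty_TN, Dirty_VM) had 3. Nothing says that replicates came from separate animals, so errors measure the spread between these libraries, which may be technical.

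A microRNA is cut from an RNA hairpin by Drosha and Dicer, and 1 of its arms, 5p or 3p, is usually kept in an Argonaute protein. Bases 2 to 8 of the mature strand, the seed, pair with target messenger RNAs. Many hairpins lie in introns of other genes, and some lie within small nucleolar RNAs (snoRNAs), the guides that direct chemical modification of ribosomal RNA, from which short fragments can also be cut. Virtual memory cells acquire a memory phenotype without meeting foreign antigen, under homeostatic cytokines such as IL-15, while true naive cells do not.

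The mature strands are shown because the members share no hairpin, and those with a sequence share no seed. RefSeq (GRCm38.p6, the build of mm10) gave a sequence for 7 of the 8, all but miR-378a-5p, and these had 7 distinct seeds. Each runs 5′ to 3′ with the seed in capitals.
miR-361-3p: uCCCCCAGgugugauucugauuugu
miR-186-5p: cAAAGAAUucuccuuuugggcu
miR-339-3p: uGAGCGCCucggcgacagagccg
miR-1291: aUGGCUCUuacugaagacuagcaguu
miR-5121: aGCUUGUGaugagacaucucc
miR-1943-5p: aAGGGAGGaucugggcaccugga
miR-664-5p: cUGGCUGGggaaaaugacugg
GC content ranged from 40.9% in miR-186-5p to 73.9% in miR-339-3p, around a median of 47.8% over the 442 tested rows with a sequence. The seed of miR-1943-5p occurs also in miR-149-3p, miR-6967-5p and miR-7016-5p, none of which passed the filter on low counts. No other mature strand in the RefSeq table shared a seed with the other six.

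All 7 hairpins with a position lie inside genes, and none of the mature strands overlapped an exon of a coding transcript in GENCODE M21. miR-361 lies on the minus strand in an intron of Chm, which encodes a Rab escort protein, at chrX:113074824-113074893. miR-186 lies in an intron of Zranb2, a splicing factor gene, at chr3:157544279-157544349 on the plus strand. miR-339 lies in an intron of 3110082I17Rik at chr5:139369650-139369745, and miR-1943 in one of Tmem184b at chr15:79375228-79375300, both on the minus strand. The hairpin of miR-378a lies in an intron of Ppargc1b, the gene of the mitochondrial coactivator PGC-1β, and both of its arms are known as regulators of energy metabolism.

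The remaining 3 members overlapped snoRNA genes on the same strand. miR-1291 (hairpin chr15:98519762-98519878, minus strand, in a Kansl2 intron) begins at the 5′ end of Snora34, 0 bases from it, with all 26 of its bases inside that snoRNA. miR-5121 (hairpin chr7:45126918-45126991, minus strand) lies in Rpl13a, a ribosomal protein gene whose introns carry several snoRNAs. Its 21 bases lie inside Snord33 and begin 2 bases from that snoRNA's 5′ end, and they also fall in a retained-intron transcript of Rpl13a. miR-664-5p (hairpin chr1:185242975-185243043, plus strand, in a Rab3gap2 intron) lies 68 bases into Snora36b. Of 425 tested miRNAs with a RefSeq sequence, 18 (4.24%) overlapped an annotated snoRNA, or the related class scaRNA, in this way. Among them were arms of miR-1843a and miR-1843b, inside Scarna3b and Scarna3a. Whether the counted reads came from the hairpin or from the snoRNA was not tested.

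Levels below are CPM values (counts scaled to a common library total) on totals scaled by the TMM method, and differences are log2 estimates ± SE from 1 edgeR quasi-likelihood fit over all 545 rows that passed the filter, which all 8 members did. Library totals ran from 2614396 to 16312004 estimated counts, with the shallow libraries (under 5000000) spread over all 4 groups. Dirty_TN replicate 3 stood apart from its group. Its level was nearer to the Clean_TN mean than to the mean of Dirty_TN replicates 1 and 2 in all 8 members, and in 68.6% of all 545 rows. The 7 T cell and lymphocyte miRNAs listed as a check, among them miR-150-5p and miR-142a-3p, were all measured and summed to between 86700 and 159000 CPM.

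The members fell into 2 mirror-image patterns. In 6 of them dirty mice had lower levels than clean mice in TN cells and higher levels in VM cells: miR-361-3p, miR-186-5p, miR-339-3p, miR-378a-5p, miR-1291 and miR-5121. In miR-1943-5p and miR-664-5p the order was the other way round. The label of the set thus held for all 8 by sign. An opposite sign alone was common, however, since 61.1% of the 545 rows had one. In 7 of the 8, all but miR-186-5p, the dirty and clean libraries did not overlap in either subset and lay in opposite order, as in 4.77% of all rows (2.75% with the first order and 2.02% with the second). These shares stand beside values that the choice itself used.

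**Figure D1:**
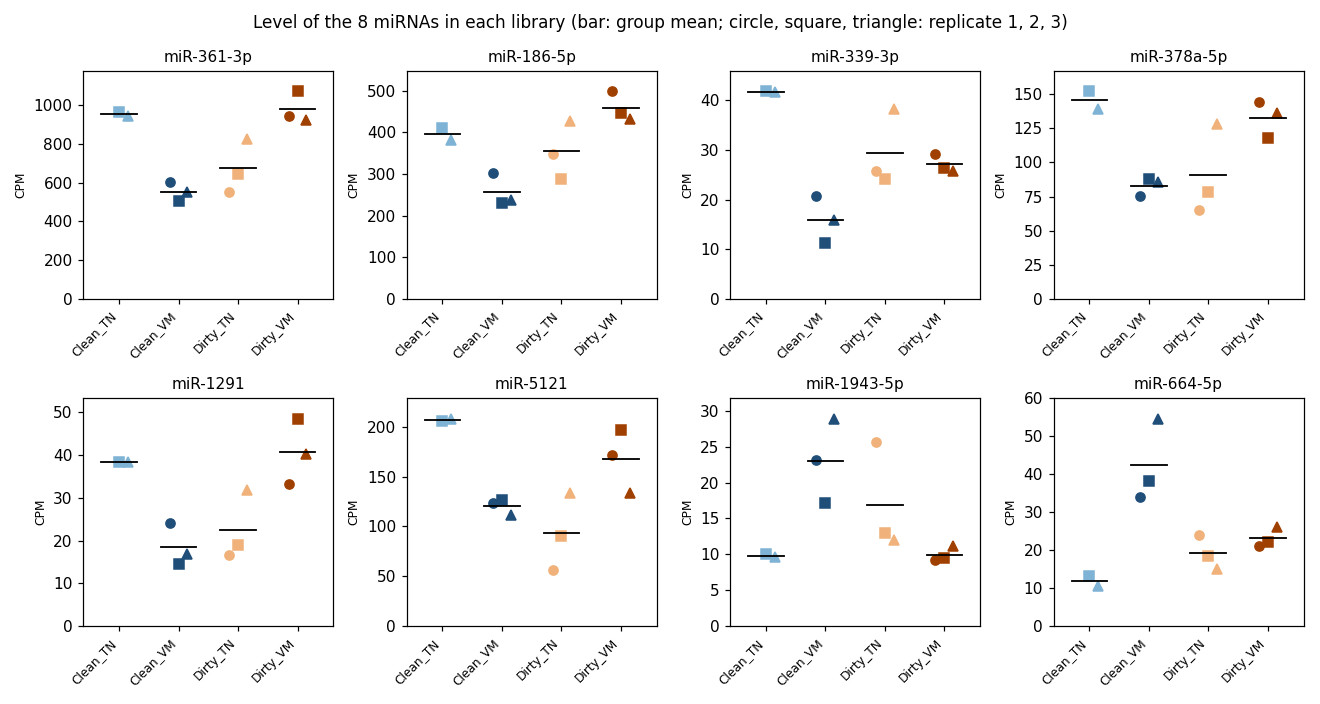
Levels in CPM (linear axes from 0) of the 8 miRNAs in each of the 11 libraries, by group, with bars at the group means. For the first 6 miRNAs Clean_VM lies below Clean_TN and Dirty_VM lies above Clean_VM, while miR-1943-5p and miR-664-5p are highest in Clean_VM. Dirty_TN replicate 3 (triangle) lies on the Clean_TN side of its group each time.

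miR-361-3p stood at 965 and 946 CPM in the Clean_TN libraries, and at 601, 505 and 553 in Clean_VM. It measured 553, 646 and 825 CPM in Dirty_TN, and 946, 1070 and 921 in Dirty_VM. The 3 Dirty_VM libraries lay around the Clean_TN level, and Dirty_TN replicates 1 and 2 near the Clean_VM level. Dirty minus clean was -0.50 ± 0.20 on the log2 scale in TN cells and 0.82 ± 0.18 in VM cells, so the difference between these differences (the interaction) was 1.32 ± 0.27. VM minus TN was -0.79 ± 0.20 in clean and 0.53 ± 0.18 in dirty mice. Without Dirty_TN replicate 3 the difference in TN cells was -0.89 ± 0.19.

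The other arm of that hairpin, miR-361-5p, was no member, and its libraries overlapped between the groups. Its mean ± SD was 620 ± 96.7 CPM over the 2 Clean_TN libraries, and over the 3 libraries of the other groups it was 559 ± 138 in Clean_VM, 587 ± 57.9 in Dirty_TN and 591 ± 47.2 in Dirty_VM. Its interaction was 0.16 ± 0.31 (edgeR adjusted p = 0.889). The ratio of 3p to 5p counts was 1.56 ± 0.222 in Clean_TN, 1.03 ± 0.276 in Clean_VM, 1.14 ± 0.136 in Dirty_TN and 1.67 ± 0.255 in Dirty_VM. The ratio followed the order of miR-361-3p itself. Among the Clean_VM libraries replicate 3 (1.35) came closest to the Clean_TN libraries (1.40 and 1.72).

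miR-186-5p held 410 and 381 CPM in Clean_TN and 302, 229 and 238 in Clean_VM. Its levels were 347, 287 and 428 CPM in Dirty_TN and 498, 447 and 431 in Dirty_VM. The Clean_TN and Dirty_TN libraries overlapped, because Dirty_TN replicate 3 was above both Clean_TN libraries, while every Dirty_VM library was above every Clean_VM library. The difference of dirty from clean mice was -0.16 ± 0.22 in TN and 0.84 ± 0.20 in VM cells, with an interaction of 1.00 ± 0.29, the smallest of the 8 in size. Here the difference changed in size more than in sign, and the TN value lay within 1 SE of 0. It was -0.54 ± 0.21 without Dirty_TN replicate 3. The other arm, miR-186-3p, had at most 3 counts in a library and was not tested.

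miR-339-3p was highest in Clean_TN, at 41.8 and 41.6 CPM, and lowest in Clean_VM, at 20.7, 11.3 and 15.8. Dirty_TN held 25.8, 24.2 and 38.2 CPM and Dirty_VM 29.2, 26.3 and 25.8. The dirty groups overlapped each other between these ends, so that VM minus TN was -1.40 ± 0.28 in clean and -0.13 ± 0.26 in dirty mice. In TN cells dirty minus clean was -0.50 ± 0.28 and in VM cells it was 0.78 ± 0.26 (interaction 1.27 ± 0.38). The TN difference was -0.96 ± 0.29 without Dirty_TN replicate 3.

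Its partner arm miR-339-5p, not a member, had a similar profile. The means were 170 ± 17.9 CPM in Clean_TN, 77.8 ± 17.2 in Clean_VM, 108 ± 38.1 in Dirty_TN and 118 ± 24.4 in Dirty_VM. miR-339-5p fell in VM cells of clean mice by 1.13 ± 0.30 on the log2 scale (edgeR adjusted p = 0.0223) and did not pass in dirty mice (0.14 ± 0.27, adjusted p = 0.815). That call was lost without Clean_TN replicate 2 (adjusted p = 0.122), without Clean_TN replicate 3 (0.057), without Clean_VM replicate 3 (0.0594) and with the replicate number as a block (0.0771). The interaction of miR-339-5p was 1.27 ± 0.41 and did not pass (adjusted p = 0.152). It passed without Dirty_TN replicate 3 (1.72, adjusted p = 0.00892). The ratio of 3p to 5p counts had group means between 0.209 and 0.287 and SDs of 0.0251 to 0.0829. Single libraries ran from 0.141 in Clean_VM replicate 2 to 0.379 in Dirty_TN replicate 1. For this hairpin both arms thus showed the crossed order, measured in the same libraries.

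miR-378a-5p measured 152 and 139 CPM in Clean_TN, against 75.7, 87.8 and 85.3 in Clean_VM. Dirty_TN held 65.0, 78.5 and 128 CPM, and Dirty_VM 144, 118 and 136. Clean_TN and Dirty_VM overlapped, as did Clean_VM and Dirty_TN. Its dirty minus clean values were -0.68 ± 0.26 in TN and 0.68 ± 0.24 in VM cells, the most even pair of opposite differences in the set (interaction 1.36 ± 0.35). Without Dirty_TN replicate 3 the TN difference was -1.25 ± 0.22.

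miR-378a-3p, the abundant arm, had no such order. Its means were 7020 ± 39.1 CPM in Clean_TN, 6160 ± 1850 in Clean_VM, 8480 ± 1000 in Dirty_TN and 6810 ± 1840 in Dirty_VM. Its interaction was -0.13 ± 0.36 (edgeR adjusted p = 0.935), and its sign turned under some alternatives. The 5p arm held 0.0208 ± 0.00141 counts per 3p count in Clean_TN, 0.0146 ± 0.00569 in Clean_VM, 0.0111 ± 0.00519 in Dirty_TN and 0.0207 ± 0.00656 in Dirty_VM. Single libraries overlapped between these groups, since Clean_VM replicate 2 stood at 0.0208 and Dirty_VM replicate 2 at 0.0132.

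Of the members inside snoRNAs, miR-1291 had the largest interaction of the 6 with higher levels in dirty VM cells. It stood at 38.4 and 38.3 CPM in Clean_TN and at 24.2, 14.5 and 16.8 in Clean_VM. Dirty_TN libraries held 16.7, 19.0 and 31.9 CPM and Dirty_VM libraries 33.3, 48.5 and 40.2. Every VM library of dirty mice exceeded every VM library of clean mice, and both Clean_TN libraries lay within the Dirty_VM range. The difference of dirty from clean mice was -0.76 ± 0.31 in TN and 1.14 ± 0.29 in VM cells (interaction 1.90 ± 0.42). VM minus TN was -1.06 ± 0.31 in clean and 0.84 ± 0.29 in dirty mice. The levels rest on 66 to 670 counts per library. Leaving out Dirty_TN replicate 3 gave a TN difference of -1.33 ± 0.29.

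miR-5121, which lies in the 5′ part of Snord33, differed most in TN cells. Clean_TN libraries held 206 and 208 CPM, and Dirty_TN libraries 55.9, 90.6 and 133. In VM cells the clean libraries held 123, 126 and 111 CPM, and the dirty ones 172, 197 and 133. Dirty_VM replicate 3 and Clean_VM replicate 2 nearly met. Dirty minus clean was -1.15 ± 0.30 in TN and 0.47 ± 0.27 in VM cells (interaction 1.63 ± 0.40). Without Dirty_TN replicate 3 the TN difference was -1.73 ± 0.26. In the deep libraries alone the VM difference was 0.05, and in the shallow ones 0.61.

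miR-664-5p, which lies inside Snora36b, had the reverse order. Clean_TN held 13.1 and 10.5 CPM, and Clean_VM 34.1, 38.2 and 54.6. Dirty_TN stood between them at 24.0, 18.5 and 14.9 CPM, as did Dirty_VM at 21.1, 22.2 and 26.1. The dirty groups overlapped each other, and VM minus TN was 1.83 ± 0.30 in clean mice against 0.28 ± 0.26 in dirty mice. The environment difference was 0.68 ± 0.29 in TN and -0.87 ± 0.26 in VM cells (interaction -1.55 ± 0.39). The TN value hardly moved, to 0.62 ± 0.30, when Dirty_TN replicate 3 was left out. The interaction was -1.15 without Clean_VM replicate 3.

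The arms of miR-664 differed in their order of groups, and the partner is shown for that reason.
miR-664-3p: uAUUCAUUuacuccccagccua
It lies 105 bases into Snora36b with all 22 bases inside, so both arms lie within the same snoRNA gene. miR-664-3p stood at 91.7 ± 12.1 CPM in Clean_TN, 79.7 ± 19.9 in Clean_VM, 59.6 ± 31.7 in Dirty_TN and 105 ± 11 in Dirty_VM. Its interaction of 1.01 ± 0.48 had the opposite sign to that of miR-664-5p and did not pass (edgeR adjusted p = 0.302). It passed without Dirty_TN replicate 3 (1.70, adjusted p = 0.0105). The ratio of 5p to 3p counts was 0.158 and 0.105 in Clean_TN, 0.454, 0.377 and 0.872 in Clean_VM, 0.763, 0.346 and 0.158 in Dirty_TN, and 0.197, 0.240 and 0.229 in Dirty_VM. The ratio was thus higher in every Clean_VM library than in any Clean_TN or Dirty_VM library, and Dirty_TN replicate 3 stood at the value of a Clean_TN library.

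**Figure D2:**
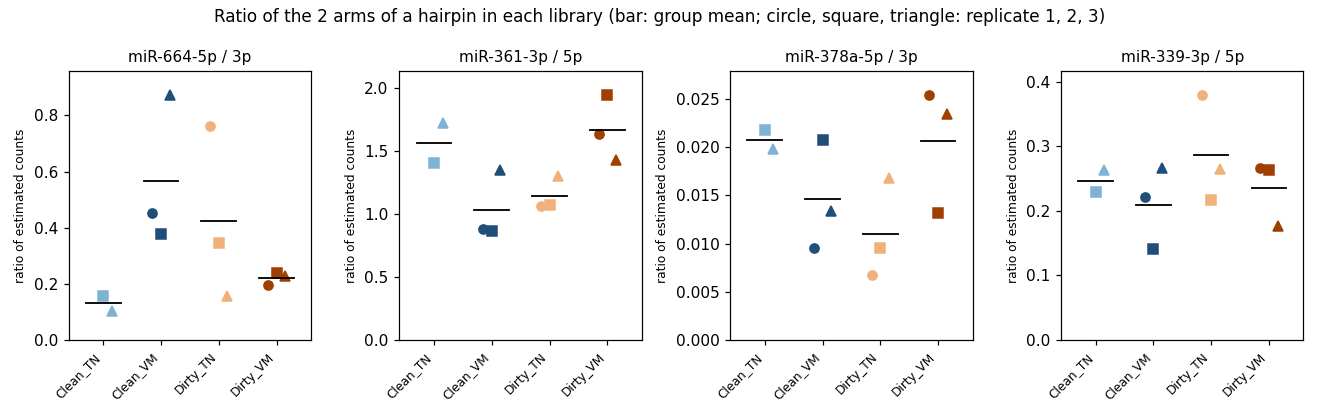
Ratio of estimated counts of the member arm to its partner arm in each library (linear axes from 0), for the 4 hairpins with both arms tested, with bars at the group means. Over single libraries the ratio for miR-664 ran from 0.105 to 0.872 and was highest in Clean_VM replicate 3, and the ratio for miR-339 ran from 0.141 to 0.379.

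miR-1943-5p was the least abundant member, with 23 to 288 counts per library. It stood at 10 and 9.64 CPM in Clean_TN, 23.1, 17.2 and 28.9 in Clean_VM, 25.7, 13.0 and 12 in Dirty_TN, and 9.22, 9.45 and 11.2 in Dirty_VM. Clean_TN and Dirty_VM overlapped at the low end, and Dirty_TN replicate 1 alone reached the Clean_VM range. Dirty minus clean was 0.78 ± 0.36 in TN and -1.20 ± 0.32 in VM cells. The TN value was 0.76 ± 0.36 when Dirty_TN replicate 3 was left out. The interaction was -1.98 ± 0.48, the largest of the 8 in size, and -1.47 without Dirty_TN replicate 1. Its partner miR-1943-3p had at most 17 counts in a library and was not tested.

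**Figure D3:**
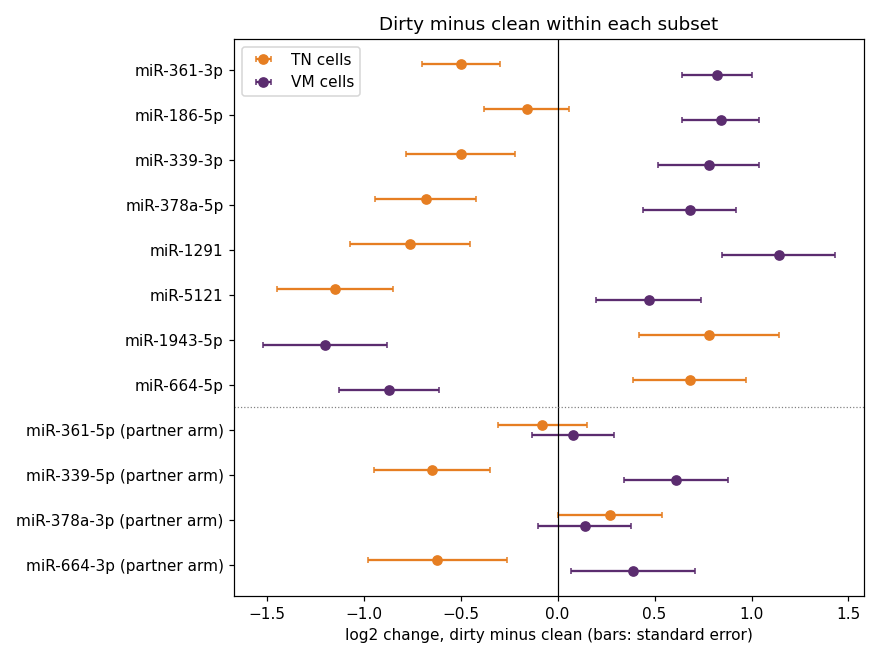
Log2 change of dirty minus clean mice, with standard errors, in TN and VM cells for the 8 miRNAs (above the dotted line) and the 4 tested partner arms (below it). The 2 estimates lie on opposite sides of 0 for each of the 8 and for miR-339-5p, miR-664-3p and, close to 0, miR-361-5p.

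Across groups, the Clean_TN and Dirty_VM libraries overlapped for miR-361-3p, miR-378a-5p, miR-1291 and miR-1943-5p, and did not for the other 4 (44.2% of all rows did not). Clean_VM and Dirty_TN libraries overlapped for all but miR-339-3p and miR-664-5p, 2 of 8 (30.5% of all rows did not). Seen by environment, VM minus TN changed sign between clean and dirty mice in 6 members and only in size in miR-339-3p and miR-664-5p. In clean mice VM and TN libraries did not overlap for any of the 8 members (52.7% of all rows), and in dirty mice for 4 (30.5%). Comparisons within 1 environment and within 1 subset share groups of libraries, and the choice of members used them all.

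No row passed for dirty against clean in TN cells (0% of 545, edgeR, 38 at an unadjusted p under 0.05), in VM cells (0%, 81 unadjusted) or for the interaction (0%, 93 unadjusted). DESeq2 called 3, 22 and 41 rows in these comparisons, and limma-voom 0, 1 and 0. Without Dirty_TN replicate 3 the edgeR counts were 28, 26 and 73. The median size of the interaction was 1.46 over the members and 0.63 over all rows. An opposite sign with an interaction at least as large in size as that of miR-186-5p was found in 135 rows (24.8%), so the rule left most such rows out. None of the 4 tested partner arms passed in TN cells, in VM cells or for the interaction. For VM against TN 1 of the 4, miR-339-5p, was called in clean mice, where 17.4% of all rows were, and none in dirty mice, where 12.1% were.

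The members varied together over libraries. Among the 6 with the first pattern the 15 pairwise correlations of log2 CPM over 11 libraries ran from 0.41 to 0.97 with a median of 0.76, miR-361-3p and miR-1291 being the pair at 0.97. miR-1943-5p and miR-664-5p had r = 0.74, and the 12 pairs between the patterns ran from -0.90 to -0.42. Members were chosen on differences between these groups of libraries, so these values are a description. Among tested rows of other hairpins outside the set, the profile most like miR-361-3p was let-7f-2-3p (r = 0.92), and that most like miR-1291 was miR-30c-5p (0.91). miR-186-5p was closest to miR-191-5p and miR-20a-5p (both 0.90), and miR-339-3p to miR-532-3p (0.95) and miR-142b (0.89). miR-378a-5p was closest to miR-93-5p (0.90), miR-5121 to miR-664-3p (0.83), miR-664-5p to miR-423-5p (0.96) and miR-200a-5p (0.93), and miR-1943-5p to miR-5132-5p and the mir-92a-2 row of miR-92a-3p (both 0.85). These are correlations over 11 libraries that share scaling and groups.

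Some properties of whole libraries moved with the members. let-7f-5p, an abundant miRNA, itself had the order of miR-1943-5p and miR-664-5p. In its let-7f-1 row dirty minus clean was 0.63 ± 0.26 in TN and -0.63 ± 0.23 in VM cells. The interaction of that row was -1.26 ± 0.34 (edgeR adjusted p = 0.102). let-7f-5p held 18.1% and 19.7% of counts in Clean_TN, and 26.8%, 26.4% and 26.7% in Clean_VM. Its share was 29.3%, 26.7% and 19.2% in Dirty_TN, and 18.2%, 20.2% and 17.1% in Dirty_VM. The libraries with 26.4% or more held 505 to 646 CPM of miR-361-3p, and those with 20.2% or less held 825 to 1070. For miR-1943-5p the same libraries held 13.0 to 28.9 CPM and 9.22 to 12 CPM. miR-186-5p, miR-378a-5p, miR-1291 and miR-5121 also separated by this share. miR-664-5p did not, with 18.5 CPM in Dirty_TN replicate 2 and 21.1, 22.2 and 26.1 in Dirty_VM. miR-339-3p met at 25.8 CPM in Dirty_TN replicate 1 and Dirty_VM replicate 3. The TMM scaling factors were 1.13 and 1.08 in Clean_TN, 0.911 to 0.971 in Clean_VM, 0.834, 0.966 and 1.14 in Dirty_TN, and 1.1, 0.939 and 1.03 in Dirty_VM. Their correlation with the log2 level over the 11 libraries was 0.49 to 0.88 for the 6 and -0.72 and -0.58 for miR-1943-5p and miR-664-5p. The part of library composition in the results was not tested. With library totals in place of these factors all 8 members kept opposite signs, and the median interaction over all rows was 0.24 in place of -0.05. The members were chosen on these differences, and a change of scaling factor cannot test the part of library composition.

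**Figure D4:**
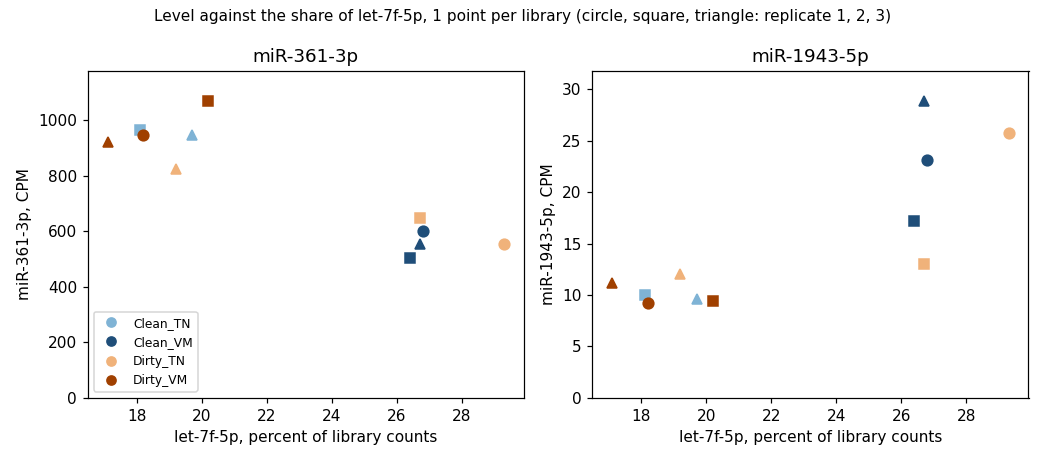
Level of miR-361-3p and miR-1943-5p in CPM against the share of let-7f-5p in each of the 11 libraries (let-7f-5p axis not from 0). The 3 Clean_VM libraries and Dirty_TN replicates 1 and 2 lie at 26.4% or more, and the other libraries, Dirty_TN replicate 3 among them, at 20.2% or less.

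The interactions were also taken within each depth class. Within the shallow libraries alone the interactions of the first 6 ran from 1.27 to 1.99, with -1.52 for miR-1943-5p and -1.25 for miR-664-5p. Within the deep libraries alone they ran from 0.95 to 1.97, with -1.94 and -1.40. All 8 had opposite signs in each class, with 1 and 2 residual degrees of freedom. The members were chosen on these differences in the same libraries, so the signs within each class describe the choice and test nothing.

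Marker miRNAs that point to cells other than T cells were also read. Of 4 erythroid miRNAs 3 were tested (miR-144-3p had 0 to 7 counts), and their sum ran from 59.3 to 76.5 CPM in Clean_TN, 129 to 260 in Clean_VM, 69.2 to 147 in Dirty_TN and 119 to 198 in Dirty_VM. miR-486a-5p and miR-486b-5p, near-identical copies between which reads may be split, had interactions of -1.49 ± 0.54 and -1.48 ± 0.50 (edgeR adjusted p = 0.21 and 0.185). Both were higher in VM cells of clean mice, by 1.88 ± 0.43 and 1.91 ± 0.39 on the log2 scale (edgeR adjusted p = 0.00985 and 0.00617). Neither call held without Clean_TN replicate 3 (adjusted p = 0.121 and 0.082), and that of miR-486a-5p was also lost without Clean_TN replicate 2 (0.0625). The red cell marker miR-451a, at 5.37 to 28.1 CPM, had an interaction of 0.19 ± 0.76 (adjusted p = 0.955).

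The myeloid miR-223-3p stayed between 0.257 and 3.12 CPM, with an interaction of 0.37. The 2 endothelial miRNAs summed to 18.4 to 19.3, 21.7 to 47.7, 15.3 to 29.7 and 29.6 to 53.0 CPM in the same order of groups (median interaction -0.52). The 3 stromal ones summed to 39.5 to 47.7, 62.5 to 103, 47.0 to 68.8 and 75.2 to 107 CPM (1.18), with miR-145a-5p at 0 in Dirty_TN replicate 1. Most of that sum was miR-143-3p, whose interaction was -0.61 ± 0.35. Those of the scarcer miR-199a-3p and miR-145a-5p were 1.18 ± 0.73 and 2.01 ± 1.53. The 5 epithelial miRNAs summed to 1230 to 2200 CPM over all libraries (0.03), and the 4 of hepatocytes and muscle to 860 to 2760 (-0.67), of which miR-122-5p alone reached 2740. None of these marker miRNAs was called for the interaction or for dirty against clean mice. Besides the miR-486 copies, the stromal miR-143-3p was called for VM against TN in clean mice (74.1 ± 18.8 CPM against 34.5 ± 4.1, edgeR adjusted p = 0.0146), and the epithelial miR-200a-3p in clean (0.65 ± 0.20, adjusted p = 0.0394) and in dirty mice (0.79 ± 0.18, adjusted p = 0.00911). Of these, the call of miR-143-3p was lost without either Clean_TN library (adjusted p = 0.112 and 0.211), without Clean_VM replicate 2 (0.112) or 3 (0.0687) and with library totals (0.0577). That of miR-200a-3p in clean mice was lost without any library but Clean_VM replicate 1 (adjusted p = 0.0545 to 0.302), and its call in dirty mice without Dirty_TN replicate 2 (0.0545) or Dirty_VM replicate 1 (0.0682). In clean mice the miR-200a-3p call was also lost under the other edgeR scalings and filters, summed rows, replicate block and depth term (edgeR adjusted p = 0.0512 to 0.198). The DESeq2 Wald test (adjusted p = 0.0164) and limma-voom (adjusted p = 0.0375) kept it. The part of these cell types in the results was not tested, and in bulk libraries fewer cells of a type and less RNA per cell cannot be told apart.

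The other snoRNA-overlapping miRNAs lay on both sides of 0. Outside the set 15 tested rows, picked by position after the data were seen, overlapped an annotated snoRNA or scaRNA. Their interactions ran from -1.01 to 2.86, 10 above and 5 below 0, with a median of 0.27 against -0.05 over all rows. The 15 rows included miR-664-3p, described above, and miR-1839-5p, with an interaction of -0.45 ± 0.41 (edgeR adjusted p = 0.61). Its partner miR-1839-3p, which is not among the 15, had 0.94 ± 0.57 (adjusted p = 0.402).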

How the data were processed

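Small RNA of sorted cells was sequenced with a NEBNext kit, per the labels' protocols. The authors deposited estimated counts per mature miRNA and hairpin (expected counts, 88.7% of values whole). The submitters' processing notes name mm10, and aligner and counter are not given in the sources used here.

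Of 2128 rows, 120 identical repeats were dropped, leaving 2008. Counts were rounded. filterByExpr kept 545 rows (524 miRNAs, 99.99% of counts). edgeR 4.0.16 (TMM, 1 mean per group, robust quasi-likelihood F-tests) was fitted over all 11 libraries, with Benjamini-Hochberg adjustment over 545 rows and a threshold of 0.05. Each SE was worked back from the estimate and its F statistic. Tests are two-sided. The fit was tested on simulated data. Log2 CPM used a prior count of 2.

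Named were the members, their partner arms, seed sharers and, per member, the 2 most correlated rows. Members and lists were chosen with earlier results of these data known. Sequences came from RefSeq and positions from RefSeq and GENCODE M21. Alternatives used DESeq2 1.42.0, limma 3.58.1, other scalings and filters, rows summed per miRNA, a replicate block, a depth term and each library left out. Fits within depth classes were added after seeing the data.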

Additional observations from a re-analysis of the deposited data

Results flagged for a closer look

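Dirty and clean libraries did not overlap and lay in opposite order in TN and VM cells for 7 members and 1 partner arm. The interactions were 1.32 for miR-361-3p, 1.90 for miR-1291, 1.63 for miR-5121, 1.27 for miR-339-3p, 1.36 for miR-378a-5p, -1.98 for miR-1943-5p and -1.55 for miR-664-5p. Since these miRNAs were picked for this pattern, the difference was not tested for them. For the partner arm miR-339-5p the interaction was 1.27 (edgeR adjusted p = 0.152), and it did not pass. Such an order was found in 4.77% of all 545 rows.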

How the results depend on the processing

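The 8 members had opposite signs of dirty minus clean in TN and VM cells under all 22 alternatives. Each alternative refitted libraries on which the members were chosen, so this count describes the choice. In the main fit 61.1% of all 545 rows had opposite signs. With 1 library left out at a time, between 0 and 28 rows were called for dirty against clean mice among TN libraries, between 0 and 26 among VM libraries and between 0 and 73 for the interaction. VM against TN gave 33 to 120 rows in clean mice and 42 to 94 in dirty mice. All 5 highest counts came without Dirty_TN replicate 3. The lowest came without Clean_TN replicate 3 in clean mice and without Dirty_VM replicate 3 in dirty mice. DESeq2 called 3, 22 and 41 rows for TN cells, VM cells and the interaction, the fit with no filter beyond 1 count called 4, 16 and 30, and the filter of 10 CPM in 2 libraries called 2 in VM cells and 16 for the interaction. In VM cells library totals gave 2 and limma-voom 1. miR-339-5p passed for the interaction by DESeq2 (1.28, adjusted p = 0.0271) and with no filter (1.26, adjusted p = 0.0294). The interaction of miR-378a-3p turned to 0.16 under library totals, and leaving out 1 library gave -0.42 to 0.11, with 0.01 without Clean_TN replicate 2, 0.06 without Clean_VM replicate 3, 0.05 without Dirty_TN replicate 1 and 0.11 without Dirty_VM replicate 3. That of miR-361-5p was -0.19 in the shallow libraries. The cause was not tested.

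With the replicate block VM against TN in clean mice called 56 rows in place of 95, and the other counts stayed within 1.5 times. Whether libraries with the same number were paired is not known from the labels used here. Of 15 same-numbered pairs, 6 had deviations from their group means correlated over 0.1 (range -0.55 to 0.42). Of 11 libraries, 1 correlated best with its own number. With 2 or 3 libraries per group, these values cannot decide whether the libraries were paired. Library totals shifted the median log2 value over all rows: -0.03 instead of 0.16 for TN, 0.19 instead of 0.08 for VM, 0.24 instead of -0.05 for the interaction, and the split of calls for VM against TN in clean mice from 53 higher and 42 lower to 40 and 55. Low counts limit miR-1943-5p most.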
